A study of Sus scrofa with 9 samples.

Results

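The genes described here control how much pyruvate enters mitochondrial oxidation and how protons and metabolites cross the inner mitochondrial membrane. They are the 4 pyruvate dehydrogenase kinases (PDK1, PDK2, PDK3 and PDK4), the 2 pyruvate dehydrogenase phosphatases (PDP1 and PDP2), the pyruvate carrier subunits MPC1 and MPC2, and the uncoupling proteins UCP2 and UCP3. They were taken by name from the gene column of a pig expression table, which held 1 row for each of the 10 genes among 22629 rows. All 10 had at least 1 TPM (a share of a library's transcripts, normalised for transcript length) in each of the 9 libraries and passed the filter on low values that left 12268 rows for testing.

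The libraries came from left ventricular myocardium of wild type, untreated pigs (Sus scrofa) taken 0, 7 or 15 days after birth, and each age had 3 libraries. Libraries keep the numbers of the labels, 4, 5 and 6 at day 0, 2, 5 and 6 at day 7, and 1, 2 and 6 at day 15. Nothing in the labels ties a library to its own animal, so the p-values describe the spread among these libraries, which may be technical.

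Pyruvate enters the mitochondrial matrix through a carrier built of MPC1 and MPC2 and is turned into acetyl-CoA by the pyruvate dehydrogenase complex. PDK enzymes phosphorylate and switch off that complex, and PDP enzymes remove the phosphate and switch it on again. In heart and skeletal muscle, PDK4 and UCP3 are known as genes induced by fatty acids and fasting, and the heart is known to turn towards fatty acid oxidation after birth.

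Changes were tested with limma on log2(TPM + 1), and p-values were adjusted by the Benjamini-Hochberg method over all 12268 rows, with a threshold of 0.05. Fold changes on that scale understate the change of genes with low TPM. At day 7 against day 0, 16.6% of all rows passed (2031, of which 941 were higher and 1090 lower), and the median over all rows was -0.04. For day 15 against day 0 the share was 23.9% (678 higher and 2255 lower) with a median of -0.19, and for day 15 against day 7 it was 0.171% (5 higher and 16 lower) with a median of -0.15. The balance of directions depended on the scaling. After median-of-ratios scaling the day 15 against day 0 split was 1912 higher and 1889 lower, with the median over all rows at 0.01, after quantile normalization it was 1631 and 2137, and after leaving mitochondrial transcripts and the 20 most abundant rows out of the total it was 1801 and 1760. At day 7 against day 0, the last of these gave 2353 higher and 1235 lower. For day 15 against day 7, the splits under those 3 scalings were 4 and 4, 4 and 6, and 4 and 8.

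Markers of ventricular cardiomyocytes such as MYH7 and MYL2 summed to 51437 to 63537 TPM in the 9 libraries, and 0 of the 10 tested passed in any comparison (limma). Skeletal muscle markers were under 1 TPM throughout, for the 4 of 6 that had a row. Some markers of other cell classes moved with age. The 7 endothelial markers summed to 247 to 294, 339 to 404 and 226 to 262 TPM at day 0, 7 and 15. At day 7 against day 0, PECAM1 and CDH5 among them rose (0.67 and 0.94, limma adjusted p = 0.0220 and 0.00895) and EMCN fell (-0.80, limma adjusted p = 0.0377). The 7 fibroblast markers summed to 917 to 1407, 1587 to 2168 and 1133 to 1439 TPM at the same ages, and 1 of them, COL3A1, rose at day 7 against day 0 (0.76, limma adjusted p = 0.0471). Of 6 pericyte and smooth muscle markers, with sums of 224 to 288, 217 to 241 and 164 to 195 TPM, 1 rose and 1 fell at day 7, and 1 rose and 2 fell at day 15, against day 0 (limma). The 5 adipocyte markers summed to 216 to 295, 56.1 to 117 and 161 to 183 TPM, and FABP4 fell at day 7 against day 0 (-1.76, limma adjusted p = 0.00291). FABP4, at 54.9 to 293 TPM, made up most of each sum, so the sums follow that gene. ADIPOQ, PLIN1, LEP and CIDEC were each at most 1.65 TPM outside day 0 replicate 6. The 4 listed erythroid markers summed to 379 to 1239 TPM with overlapping ages, and 0 of the 2 tested passed against day 0 (limma). The part of these cell classes in the day 7 and day 15 results was not tested.

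The atrial markers MYL4, NPPA and SLN summed to 2957 TPM in day 0 replicate 5 and 2327 TPM in day 7 replicate 5, against 147 to 834 TPM in the other 7 libraries. SLN was at most 0.110 TPM in any library, so these sums rest on MYL4 and NPPA. The single most abundant row took 24.0% to 46.0% of a library, with the highest share in day 15 replicate 1. In bulk tissue, fewer cells of a type and less RNA per cell cannot be told apart.

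Over the first week, 5 of the 10 genes passed. PDK2 and PDK3 rose and UCP3, MPC1 and MPC2 fell at day 7 against day 0, where 16.6% of all rows passed, 7.67% higher and 8.88% lower. By day 15, 7 of the 10 differed from day 0, where 23.9% of all rows passed, 5.53% higher and 18.4% lower. PDK1, PDK2 and PDK3 had risen and PDK4, PDP2, MPC2 and UCP3 had fallen. Between day 7 and day 15, 0 of the 10 passed in limma, and 0 had an unadjusted p under 0.05 (12.8% of all rows did). Values of the earlier and the later libraries were fully separated for 7 of the 10 genes at day 7 against day 0 (41.4% of all rows), for 0 at day 15 against day 7 (19.4%) and for 8 at day 15 against day 0 (39.9%). The median log2 difference of the 10 genes was -0.35 at day 7 against day 0, -0.05 at day 15 against day 7 and -0.54 at day 15 against day 0. The first-week count depended on single libraries, since it was 1 without day 0 replicate 4 or day 0 replicate 6, 3 without day 7 replicate 2 or day 7 replicate 6, and 2 without day 7 replicate 5. The day 15 against day 0 count was 3 without day 0 replicate 4, 1 without day 0 replicate 6 and 3 without day 15 replicate 6. In each fit with a count of 1, the remaining gene was UCP3.

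**Figure D1:**
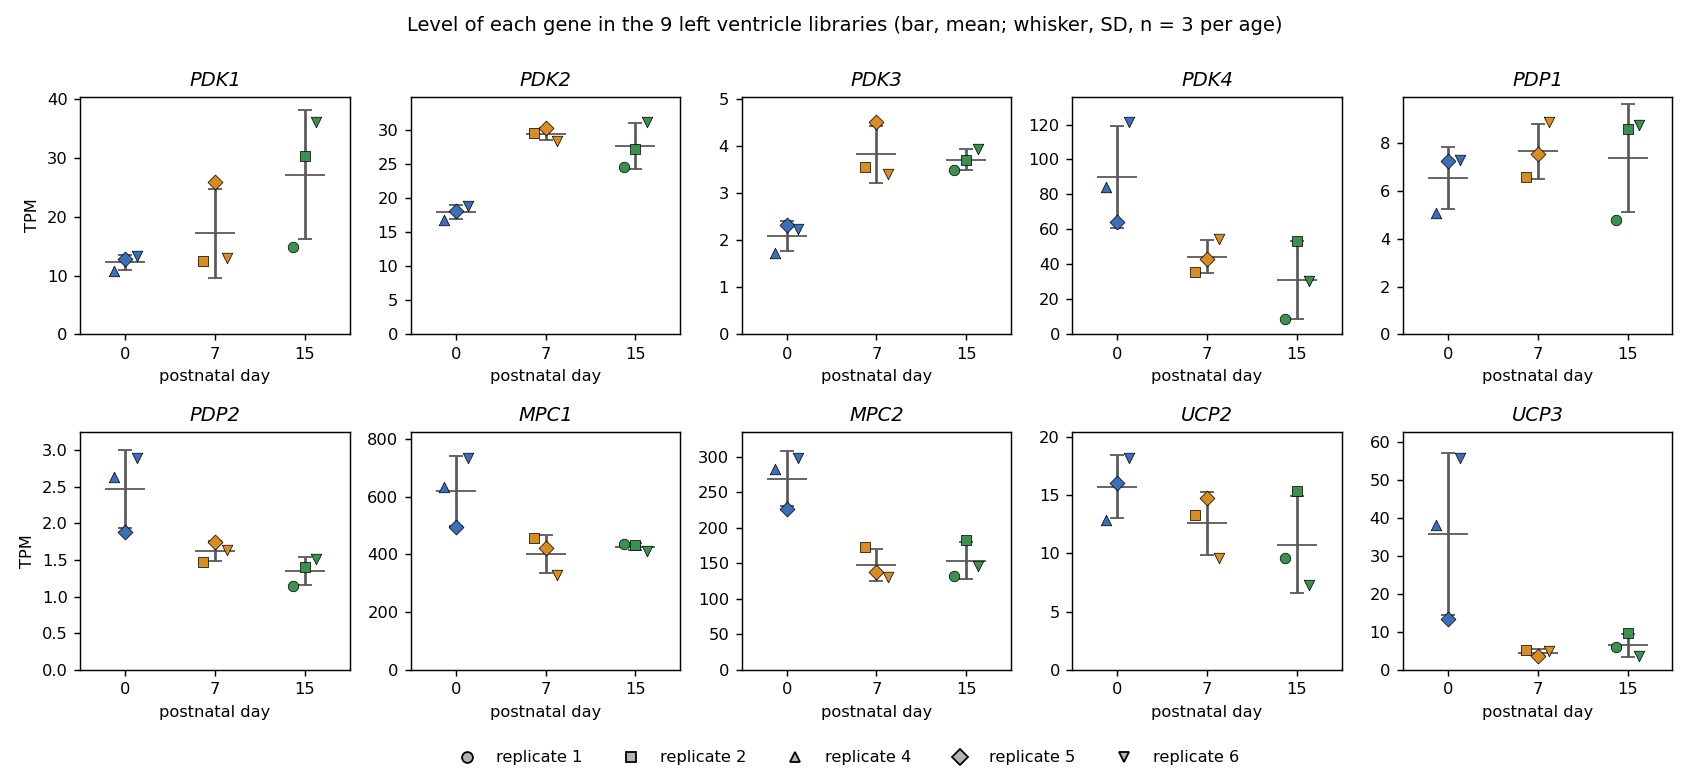
TPM (vertical axes, from 0) of each of the 10 genes in each library against postnatal day, with 1 symbol per library, a horizontal bar for the mean and whiskers for the SD (n = 3 per age). UCP3 lay between 13.4 and 55.9 TPM at day 0 and at or below 9.60 TPM at both later ages, while the day 7 and day 15 libraries of PDK2 and PDK3 lay above those of day 0.

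UCP3, a carrier of the inner mitochondrial membrane found mainly in muscle and brown fat, showed the largest fall of the 10 genes. It had 38.0, 13.4 and 55.9 TPM in day 0 replicates 4, 5 and 6, then 5.14, 3.51 and 4.88 TPM in day 7 replicates 2, 5 and 6, and 6.01, 9.60 and 3.71 TPM in day 15 replicates 1, 2 and 6. The lowest day 0 library thus lay above the highest later one, and the day 7 and day 15 libraries overlapped. The log2 difference was -2.54 ± 0.42 (SE, n = 3 per age) at day 7 against day 0, a limma adjusted p of 0.00519, and only 15 of the 12268 rows had a more negative one. In TPM, the day 7 mean of 4.51 ± 0.877 (SD) was 7.93-fold below the day 0 mean of 35.8 ± 21.3 (SD). Between day 15 and day 0 the log2 difference was -2.17 ± 0.42 (limma adjusted p = 0.00584), and between day 15 and day 7 it was 0.37 (95% interval -0.55 to 1.29), which did not pass (limma adjusted p = 0.744).

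Both falls of UCP3 passed in all 21 alternative settings, with limma adjusted p-values of 1.33e-04 to 0.0337 for day 7 and 6.46e-05 to 0.0362 for day 15. Day 0 replicate 5 had the lowest newborn value and the highest atrial marker sum of the 9 libraries. Leaving it out gave log2 differences of -3.11 at day 7 and -2.74 at day 15. Day 0 replicate 6 had the highest UCP3 level and also held the adipocyte genes ADIPOQ and PLIN1 at 13.5 and 8.15 TPM, against at most 1.65 and 0.977 TPM in the other 8 libraries. Without that library the fall was -2.12 at day 7 and -1.75 at day 15 (limma adjusted p = 0.0337 and 0.0362).

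UCP2, the more widely expressed relative of UCP3, is the neighbouring gene on chromosome 9 in the RefSeq annotation of Sscrofa11.1, with no other protein-coding gene between them. Its values were 12.9, 16.0 and 18.2 TPM at day 0 (replicates 4, 5 and 6), 13.3, 14.8 and 9.59 TPM at day 7 (replicates 2, 5 and 6) and 9.58, 15.3 and 7.26 TPM at day 15 (replicates 1, 2 and 6). The ages overlapped, and its log2 differences of -0.31 (95% interval -0.86 to 0.24) at day 7 and -0.56 (-1.11 to -0.0039) at day 15 against day 0 did not pass (limma adjusted p = 0.411 and 0.126). The day 15 difference passed in 1 of 21 alternative settings, the fit without day 15 replicate 2 (-0.83, limma adjusted p = 0.0236, range over the settings 0.0236 to 0.408). UCP2 is known to be expressed in macrophages, and that library also had the highest summed level of 12 macrophage and leukocyte markers, 339.8 TPM against 78.1 to 161 TPM in the other 8, a relation whose part in the result was not tested. Within a library, UCP3 stood at 2.95, 0.835 and 3.06 times the TPM of UCP2 at day 0, at 0.386, 0.237 and 0.509 times at day 7 and at 0.627, 0.626 and 0.511 times at day 15. UCP2 was thus the more abundant of the pair in day 0 replicate 5 and in all 6 later libraries, and UCP3 in the other 2 newborn libraries. Whether the change of UCP3 differed from that of UCP2 was not tested.

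PDK4, the kinase isoform known for its induction by fasting and fatty acids, was the most abundant of the 4 kinases in the newborn ventricle. It had 84.2, 64.4 and 121 TPM in day 0 replicates 4, 5 and 6, 35.6, 43.2 and 54.7 TPM in day 7 replicates 2, 5 and 6, and 8.98, 53.6 and 30.7 TPM in day 15 replicates 1, 2 and 6. Every later library lay below every day 0 library, while day 15 spread 5.97-fold and enclosed the day 7 values 35.6 and 43.2. Between day 15 and day 0 the log2 difference was -1.77 ± 0.47 (SE, n = 3 per age), and the fall passed with a limma adjusted p of 0.0200. At day 7 against day 0 it was -0.97 (95% interval -2.003 to 0.06), which did not pass (limma adjusted p = 0.167).

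Both PDK4 results rested in part on day 15 replicate 1, the library with the lowest PDK4 level and the largest share taken by the most abundant row. Without it the fall at day 15 against day 0 was -1.08 (limma adjusted p = 0.0329), a 2.12-fold difference against 3.41-fold with it. Without it the day 7 difference, still -0.97, passed (limma adjusted p = 0.0295), as it did when the fit held only the day 0 and day 7 libraries (limma adjusted p = 0.0207), and it missed in the other 19 settings (range over the 21 settings 0.0207 to 0.426). The day 15 against day 0 call was kept in 17 of 21 settings (range 0.00517 to 0.0999). It was lost without day 0 replicate 6 (-1.53, limma adjusted p = 0.0999), without a filter (limma adjusted p = 0.0660), with a robust fit (limma adjusted p = 0.0677) and in 1 further setting.

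PDK2, the isoform present in most tissues, moved the other way. Its levels were 16.8, 18.1 and 18.8 TPM at day 0 (replicates 4, 5 and 6), 29.6, 30.3 and 28.4 TPM at day 7 (replicates 2, 5 and 6) and 24.5, 27.2 and 31.2 TPM at day 15 (replicates 1, 2 and 6). Replicates lay close together, and no later library reached down to the day 0 values. The rise was 0.69 ± 0.16 at day 7 (limma adjusted p = 0.0158) and 0.59 ± 0.16 at day 15 (limma adjusted p = 0.0197), both against day 0 and with SE, n = 3 per age. The means of 29.4 ± 0.926 TPM at day 7 and 27.6 ± 3.35 TPM at day 15 were 1.64-fold and 1.54-fold above 17.9 ± 1.02 TPM at day 0.

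PDK3, an isoform usually low in heart, was the least abundant kinase in each library. It had 1.73, 2.32 and 2.24 TPM in the day 0 libraries, 3.55, 4.50 and 3.40 TPM in those of day 7 and 3.48, 3.71 and 3.93 TPM in those of day 15, in the same order of replicates, with no overlap between day 0 and either later age. The log2 differences were 0.64 at day 7 and 0.61 at day 15 against day 0, and both rises passed (limma adjusted p = 0.0280 and 0.0246). Against day 0, PDK2 and PDK3 were higher at both later ages in every setting run. The PDK2 calls were each kept in 16 of 21 settings, and those of PDK3 in 13 of 20 at day 7 and 16 of 20 at day 15. All 4 calls were lost without day 0 replicate 4 and without day 0 replicate 6 (limma adjusted p of 0.0587 to 0.109). The day 15 calls were also lost without day 15 replicate 6 (0.105 for PDK2 and 0.0943 for PDK3). At day 7 both were lost without day 7 replicate 5 (at the threshold, not below it, for PDK2 and 0.106 for PDK3), and PDK3 also without day 7 replicate 2 or 6 (0.0623 and 0.0586).

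PDK1, a kinase known as a target of hypoxia-inducible factor, rose at day 15 against day 0. It stood at 10.8, 12.7 and 13.2 TPM in day 0 replicates 4, 5 and 6, at 12.5, 25.9 and 13.04 TPM in day 7 replicates 2, 5 and 6, and at 14.9, 30.4 and 36.1 TPM in day 15 replicates 1, 2 and 6. The high values came from 3 libraries, and the day 7 range overlapped both other ages. The log2 difference was 1.00 ± 0.32 (SE, n = 3 per age) at day 15 against day 0 (limma adjusted p = 0.0410), lost in 7 of 21 settings (range 0.00820 to 0.149), and 0.38 (95% interval -0.32 to 1.08) at day 7 against day 0 (limma adjusted p = 0.420). The call was lost without any 1 of the day 0 libraries (0.110, 0.0571 and 0.107 without replicates 4, 5 and 6) and without day 15 replicate 2 (0.0921) or 6 (0.149). The same 3 libraries, day 7 replicate 5 and day 15 replicates 2 and 6, had the highest sums of the 12 macrophage and leukocyte markers, at 161, 339.8 and 128 TPM against 78.1 to 101 TPM in the other 6, and the part of those cells in the PDK1 result was not tested. Of 11 such markers tested, 4 rose at day 15 against day 0 and 0 fell (limma), where 5.53% of all rows passed as higher. CD3E was under 1 TPM in every library. The listed markers did not move together, since CD163, MRC1 and CD14 were lower at day 15 without passing (-0.94, -0.53 and -0.22). CD163 had 13.7, 23.7 and 8.78 TPM in day 7 replicate 5 and day 15 replicates 2 and 6. It had 19.8, 20.2 and 21.4 TPM in the day 0 libraries. In day 7 replicates 2 and 6 and day 15 replicate 1 it had 7.19, 6.90 and 4.80 TPM.

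**Figure D2:**
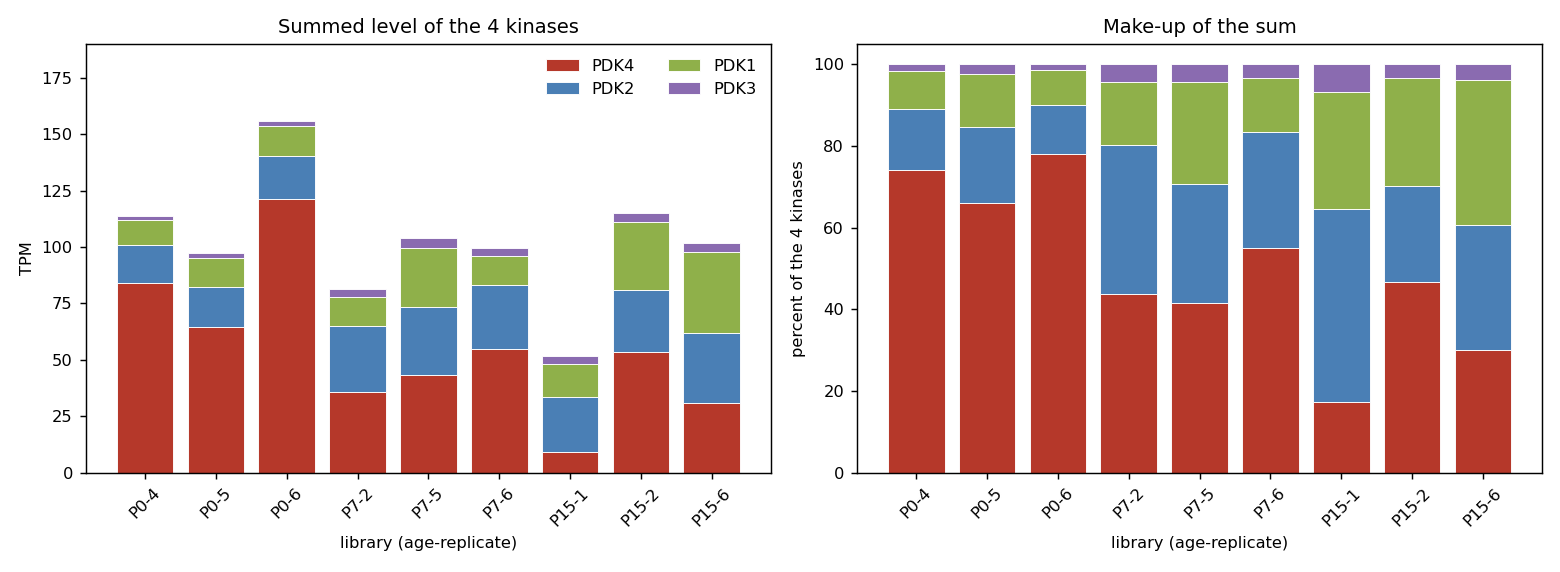
The 4 pyruvate dehydrogenase kinases in each library, as summed TPM (left) and as the percentage each isoform took of that sum (right). Bars run from the day 0 to the day 15 libraries, and PDK4 took 66.05% to 78.0% of the sum at day 0 and 17.3% to 46.7% at day 15.

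Because TPM is normalised for length, the isoforms can be set side by side within a library, provided that each row represents its gene. That was not checked, since the annotation is not given. PDK4 made up 74.2%, 66.05% and 78.0% of the summed kinase TPM in day 0 replicates 4, 5 and 6, 43.8%, 41.6% and 54.9% in day 7 replicates 2, 5 and 6, and 17.3%, 46.7% and 30.1% in day 15 replicates 1, 2 and 6. Its mean share was 72.7% ± 6.09, 46.8% ± 7.14 and 31.4% ± 14.7 at day 0, 7 and 15 (SD, n = 3 each). The share of PDK2 averaged 15.1% ± 3.23, 31.4% ± 4.37 and 33.8% ± 12.1, and that of PDK1 10.4% ± 2.39, 17.8% ± 6.27 and 30.2% ± 4.67 at the same ages.

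At day 0 the order of levels was PDK4, PDK2, PDK1 and PDK3, with no overlap between neighbours in TPM. At day 7 the order of the means was the same and again no neighbours overlapped. At day 15 the ranges of PDK4, PDK2 and PDK1 overlapped, and only PDK3 stood apart. PDK4 was 5.01, 3.57 and 6.45 times PDK2 at day 0, 1.20, 1.43 and 1.92 times at day 7 and 0.366, 1.97 and 0.985 times at day 15. The summed TPM of the other 3 kinases was 32.3 ± 2.60, 50.4 ± 8.91 and 58.4 ± 14.4, while all 4 together gave 122 ± 30.0, 94.9 ± 12.03 and 89.5 ± 33.3 at day 0, 7 and 15 (SD, n = 3 each). These sums and ratios are descriptions without a test.

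Taken as sums, the phosphatases were far less abundant than the kinases they oppose. The least abundant kinase, PDK3, lay below PDP1 in every library. PDP1, the calcium-stimulated form, had 5.07, 7.27 and 7.29 TPM in the day 0 libraries, 6.59, 7.53 and 8.89 TPM in those of day 7 and 4.79, 8.60 and 8.77 TPM in those of day 15. Its ages overlapped, with log2 differences of 0.21 (95% interval -0.30 to 0.71) at day 7 and 0.13 (-0.38 to 0.63) at day 15 against day 0, and it passed in no comparison (limma adjusted p = 0.552 and 0.712) and in none of the 21 settings.

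PDP2, the second phosphatase isoform, was near the low end of the rows tested. It had 2.64, 1.88 and 2.90 TPM in the day 0 libraries, 1.47, 1.74 and 1.64 TPM in those of day 7 and 1.15, 1.40 and 1.52 TPM in those of day 15. The later libraries lay below those of day 0. The fall at day 15 against day 0 was -0.55 ± 0.18 (SE, n = 3 per age) and passed with a limma adjusted p of 0.0399, but in only 8 of 20 alternative settings (range 0.0199 to 0.339). Leaving out any 1 library other than day 0 replicate 5 ended the call (0.0542 to 0.160). At day 7 the difference of -0.40 did not pass (limma adjusted p = 0.135), except after quantile normalization (-0.51, limma adjusted p = 0.0324). The summed kinases exceeded the summed phosphatases by 13.6 ± 2.53, 10.2 ± 0.886 and 10.04 ± 1.38 times at day 0, 7 and 15 (SD, n = 3 each), and PDP1 exceeded PDP2 in every library, by 1.92 to 6.14 times.

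The 2 subunits of the pyruvate carrier were the most abundant of the 10 genes. MPC2 had 283, 226 and 299 TPM in day 0 replicates 4, 5 and 6, 173, 138 and 131 TPM in day 7 replicates 2, 5 and 6, and 132, 183 and 146 TPM in day 15 replicates 1, 2 and 6. All later libraries lay below all day 0 libraries. The log2 difference was -0.87 ± 0.19 at day 7 and -0.81 ± 0.19 at day 15 against day 0 (SE, n = 3 per age), and both falls passed (limma adjusted p = 0.0128 and 0.0115) and were kept in 19 of 21 settings each. The day 7 call was lost without day 0 replicate 4 (0.0588) or 6 (0.0724), and the day 15 call without day 0 replicate 6 (0.0655).

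MPC1 had 634, 494 and 736 TPM in the day 0 libraries, 457, 421 and 329 TPM in those of day 7 and 434, 431 and 413 TPM in those of day 15, again without overlap between day 0 and the later ages. Its fall at day 7 was -0.62 ± 0.19 (SE, n = 3 per age) with a limma adjusted p of 0.0434, and 11 of 21 settings lost the call, among them the fits without day 0 replicate 4 or 6, any 1 day 7 library or day 15 replicate 6 (0.0519 to 0.184). By day 15 the difference from day 0, -0.52 (95% interval -0.93 to -0.11), missed the threshold (limma adjusted p = 0.0614) and passed in 3 of 21 settings, which include the fits without day 0 replicate 5 (0.0288) and without day 7 replicate 6 (0.0436). MPC1 exceeded MPC2 by 2.19 to 3.28 times in the 9 libraries, with means of 2.29 ± 0.146, 2.73 ± 0.290 and 2.82 ± 0.459 at day 0, 7 and 15 (SD, n = 3 each).

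**Figure D3:**
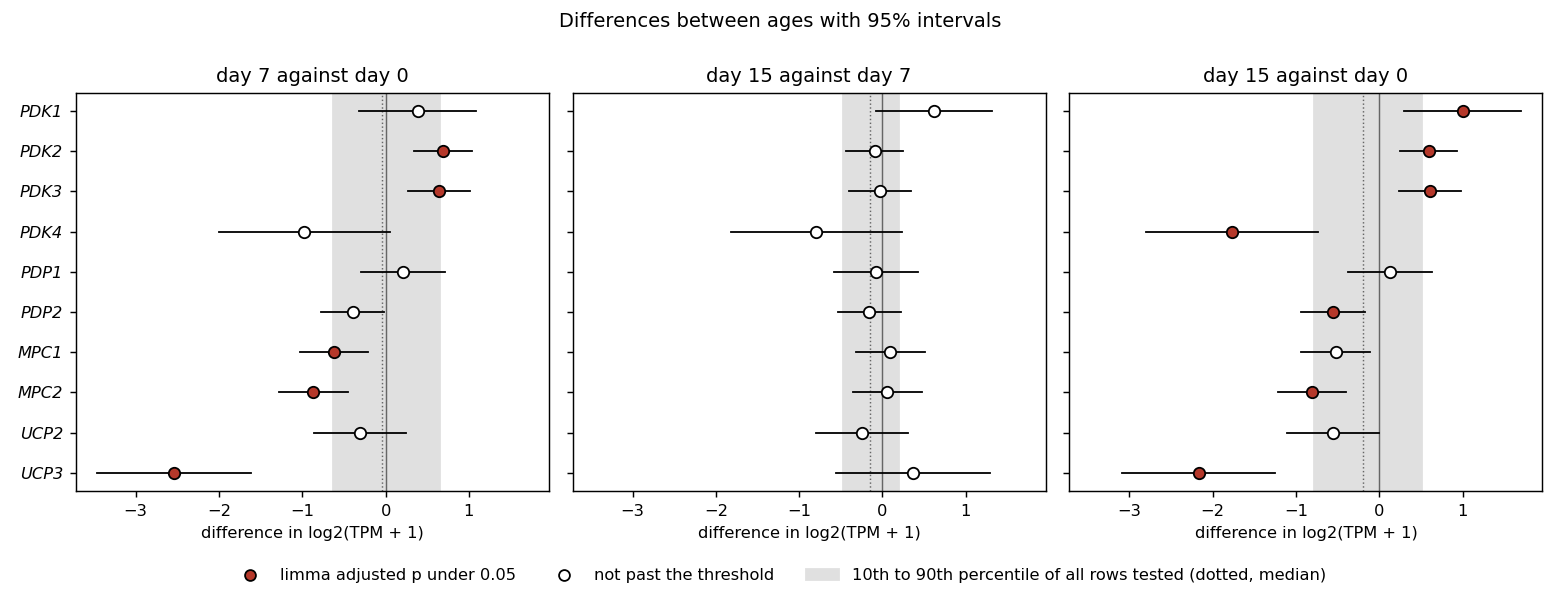
Difference in log2(TPM + 1) of each gene in 3 comparisons of ages, with 95% intervals from limma. Filled points passed an adjusted p of 0.05, the grey band spans the 10th to the 90th percentile of all 12268 rows tested, and the dotted line is their median. UCP3 at -2.54 and -2.17 lay farthest from the band, and no point is filled at day 15 against day 7.

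Whether the first-week change differed from that of the second week was tested as day 7 against the mean of day 0 and day 15. This contrast also moves where day 0 alone differs, so it does not show a state particular to day 7. The day 7 and day 15 values of all 10 genes overlapped. In limma 0 of the 10 genes passed, where 1.92% of all rows did, and 5 had an unadjusted p under 0.05 (17.9% of all rows). They were UCP3, MPC1, MPC2, PDK2 and PDK3. UCP3 had the largest difference, -1.45 (limma adjusted p = 0.0673), and passed in 2 of 20 settings, both without day 0 replicate 5 (-1.74, limma adjusted p = 0.00290 with that library alone left out, range over 20 settings 0.00290 to 0.176). For the other 9 genes the adjusted p was 0.163 or more, so a first-week change that differed from that of the second week was not detected for them.

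The pathway around these genes was described with lists of known members, whose counts stand against 7.67% of all rows higher and 8.88% lower at day 7, and 5.53% higher and 18.4% lower at day 15, both against day 0. Of the 5 genes of the pyruvate dehydrogenase complex, 2 fell and 0 rose at day 7 against day 0, with a list median of -0.42 against -0.04 over all rows. DLAT, the acetyltransferase core, averaged 39.8 ± 4.45 TPM at day 7, against 60.8 ± 7.04 TPM at day 0 (-0.60, limma adjusted p = 0.0434), and DLD, the dihydrolipoamide dehydrogenase, 91.9 ± 2.33 and 144 ± 23.2 TPM (-0.63, limma adjusted p = 0.0360), with SD, n = 3 each. The most abundant subunit, PDHA1, which carries the sites that PDK enzymes phosphorylate, averaged 221 ± 19.8 TPM at day 7, against 260.5 ± 18.4 TPM at day 0 (limma adjusted p = 0.307). None of the 5 passed at day 15 against day 0 (limma, list median -0.33), and 10 of 21 settings lost the day 7 call of DLAT and 9 that of DLD.

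Among 9 tested genes of pyruvate supply and its other fates, 0 rose and 1 fell at day 7, and 0 rose and 2 fell at day 15, both against day 0. These shares lie near those of all rows called lower, so the counts say little about the list. SLC16A3, a transporter that exports lactate, averaged 42.7 ± 7.68, 9.55 ± 4.10 and 27.1 ± 4.09 TPM at day 0, 7 and 15. It fell at day 7 against day 0 (-2.11, limma adjusted p = 0.00151) and was higher at day 15 than at day 7 (1.47, limma adjusted p = 0.0497), a call lost in 15 of 21 settings. SLC16A1, the other monocarboxylate transporter named, fell by 0.62 at day 15 against day 0 (limma adjusted p = 0.0489, lost in 16 of 21 settings), and pyruvate carboxylase, PC, by 1.01 (limma adjusted p = 0.0310, lost in 7 of 20). PC was low, at 2.52, 2.28 and 7.33 TPM in day 0 replicates 4, 5 and 6 and 0.948 to 1.62 TPM at day 15. Its day 0 mean thus rested in large part on replicate 6. PKM, which makes pyruvate in glycolysis, averaged 1010.5 ± 99.9, 873 ± 212 and 930.1 ± 72.7 TPM at day 0, 7 and 15 and passed in neither comparison. LDHB, the lactate dehydrogenase subunit typical of heart, was listed at 0.129 to 0.560 TPM, below the filter, so its row is not used here.

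Of 17 tested PPAR target genes of fatty acid handling, 0 rose and 5 fell at day 7 (median -0.39) and 1 rose and 6 fell at day 15 (median -0.40), both against day 0. PLIN5, a coat protein of lipid droplets in oxidative tissue, averaged 36.3 ± 12.01, 8.26 ± 3.47 and 6.62 ± 1.06 TPM at day 0, 7 and 15 (log2 differences from day 0 of -2.01 and -2.24, limma adjusted p = 0.00297 and 0.00106). PLIN2 fell by 1.45 and 1.49, CPT1A, the liver-type gate of fatty acid entry into mitochondria, by 1.11 and 1.54, and the fatty acid binding protein FABP3 by 1.59 and 1.45 at day 7 and day 15 (limma adjusted p = 0.00134 to 0.00773). Those 8 calls were kept in all 21 settings. CPT1B, also on the list and more abundant than CPT1A, averaged 317 ± 74.7, 320 ± 49.7 and 315 ± 62.1 TPM at day 0, 7 and 15. The most abundant of the list, ACADVL, averaged 354 ± 66.3 TPM at day 7, against 447 ± 82.5 TPM at day 0 (limma adjusted p = 0.246).

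Of 19 tested regulators known to act on PDK4 or UCP3, 0 rose and 2 fell at day 7 and 0 rose and 3 fell at day 15, with medians of -0.15 and -0.15. These shares also lie near those of all rows called lower. ESRRA, the estrogen-related receptor alpha, averaged 169 ± 42.0, 77.8 ± 16.0 and 84.5 ± 12.8 TPM at day 0, 7 and 15 (log2 differences from day 0 of -1.10 and -0.97, limma adjusted p = 0.0103 and 0.0112, each lost in 2 of 21 settings). RXRG, a partner of PPAR receptors, averaged 11.2 ± 0.331, 3.97 ± 1.98 and 12.6 ± 3.07 TPM at day 0, 7 and 15. It fell at day 7 against day 0 (-1.36, limma adjusted p = 0.00784) and was higher at day 15 than at day 7 (1.49, limma adjusted p = 0.0496, lost in 11 of 21 settings). At day 15 FOXO1, a factor known to induce PDK4 in fasting, fell by 0.81 and PPARGC1B by 0.95 (limma adjusted p = 0.0362 and 0.0431, lost in 10 and 13 of 21 settings). Both were low in day 0 replicate 5, with 7.39 TPM for FOXO1 and 5.31 TPM for PPARGC1B, against 14.2 and 12.6 TPM in replicate 4 and 17.1 and 17.2 TPM in replicate 6, and UCP3 and PDK4 were also lowest there among the newborn libraries.

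The 9 other mitochondrial carriers tested included relatives of the uncoupling proteins, and 0 rose and 5 fell at day 7 (median -0.59), and 0 rose and 4 fell at day 15 (median -0.41), against day 0. The ADP/ATP carrier SLC25A4 averaged 2650.1 ± 485 TPM at day 7, against 4893 ± 1202 TPM at day 0 (-0.87, limma adjusted p = 0.0199, lost in 5 of 21 settings), and its relative SLC25A5 30.6 ± 6.78 and 98.9 ± 33.97 TPM (-1.62, limma adjusted p = 0.00641, kept in 21 of 21 settings). The oxoglutarate carrier SLC25A11 and the aspartate-glutamate carrier SLC25A12 fell by 0.68 and 0.59 at day 7 (limma adjusted p = 0.0216 and 0.0319, lost in 9 and 8 of 21 settings).

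Of 12 tested targets of hypoxia-inducible factor, 0 rose and 3 fell at day 7 (median -0.29), and 1 rose and 2 fell at day 15 (median 0.10), against day 0. The day 15 shares lie near those of all rows. ENO1, VEGFA and HK2 fell at day 7 by 1.17, 1.30 and 2.04 (limma adjusted p = 0.00581, 0.0158 and 0.0149). The call was kept in 21 of 21 settings for ENO1 and lost in 4 each for VEGFA and HK2. HK2 was low and spread widely at day 7, with 1.58, 5.39 and 0.357 TPM in replicates 2, 5 and 6. At day 0 it had 7.03 to 13.3 TPM. BNIP3, a mitophagy receptor, rose at day 15, where it averaged 203 ± 28.1 TPM against 85.0 ± 10.6 TPM at day 0 (1.25, limma adjusted p = 0.00691, kept in 21 of 21 settings). ALDOA, the most abundant of the list, passed in no comparison.

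Of 5 tested relatives and partners of the members, 0 passed at day 7 (limma) and 1 rose and 1 fell at day 15, against day 0. The share that fell lies near that of all rows called lower, and with 5 genes the counts say little about the list. PPM1K, the phosphatase of the branched-chain ketoacid dehydrogenase, averaged 17.6 ± 4.37 TPM at day 15, against 29.4 ± 3.18 TPM at day 0 (-0.74, limma adjusted p = 0.0245, lost in 6 of 21 settings), and the opposing kinase BCKDK, a relative of the PDK enzymes, 110 ± 8.84 and 91.8 ± 15.2 TPM (limma adjusted p = 0.288). SLC25A27, also called UCP4, averaged 2.52 ± 0.737 TPM at day 15, against 1.24 ± 0.171 TPM at day 0 (0.64, limma adjusted p = 0.0427, lost in 10 of 20 settings).

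**Figure D4:**
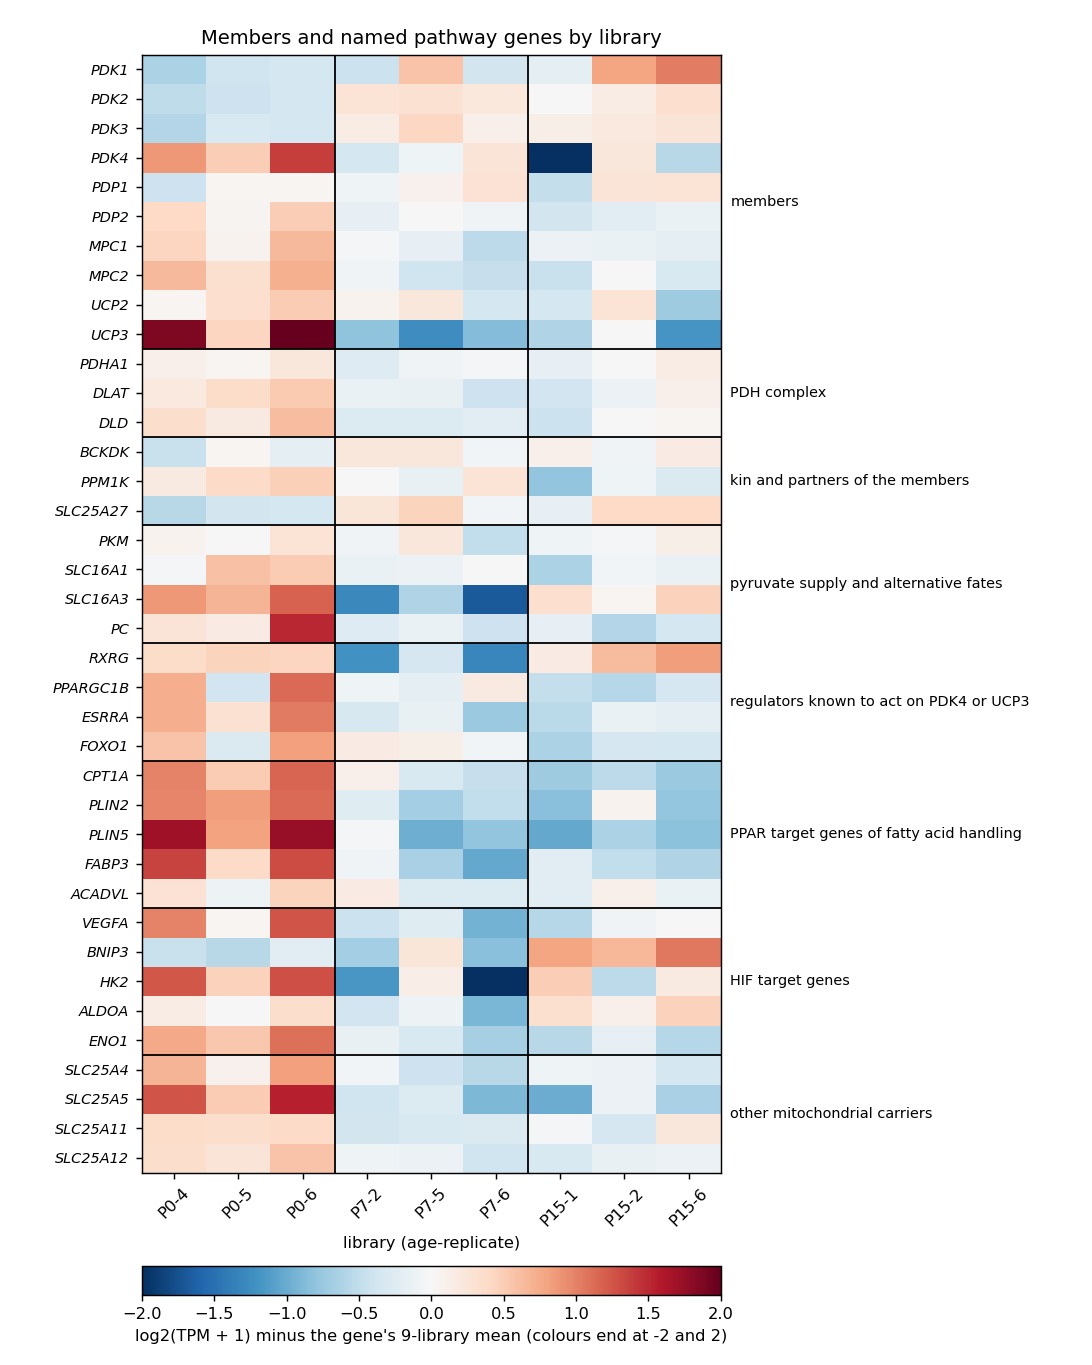
Level of the 10 genes and of the named pathway genes in each library, as log2(TPM + 1) minus the 9-library mean of the gene, with day 0, day 7 and day 15 libraries from left to right. UCP3, PLIN5, FABP3 and SLC25A5 are high in day 0 replicates 4 and 6 and less so in replicate 5, whereas PDK2 and PDK3 are low in all 3 day 0 libraries.

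The genes with the pattern nearest to each member were found by the root mean square difference of centred log2(TPM + 1) values over the 9 libraries, among 7151 rows with a symbol and a mean of at least 5 TPM. For UCP3, which itself varied by 1.26 about its mean, the nearest were KHDRBS3 at 0.45, PLIN5 at 0.47 and SLC3A2 at 0.48, against a median of 1.19 over those rows. For PDK4, which varied by 0.97, they were TMEM33 at 0.45, SUB1 at 0.47 and ADAMTS1 at 0.48, with a median of 0.85. For PDK1, which varied by 0.58, they were the iron exporter SLC40A1 at 0.15, TRIM26 at 0.15 and the interferon-induced PLSCR1 at 0.16, with a median of 0.65. PLSCR1 had 10.8 TPM in day 7 replicate 5 and 16.4 and 13.8 TPM in day 15 replicates 2 and 6, against 3.56 to 5.48 TPM in the other 6 libraries, values that follow from its choice as a near pattern of PDK1.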

How the data were processed

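Left ventricular RNA was made into libraries with an Illumina TruSeq stranded mRNA kit, per the labels' protocols. The authors deposited 1 table of TPM values of 22629 rows, with the 9 libraries as columns. The tools were Trimmomatic 0.33, HISAT2 2.0.5 and kallisto 0.43.1, per the submitters' processing notes, which state neither role nor order. Build, annotation and strand setting: not given in the sources used here. TPM keeps no record of depth, so depth is unknown and no counting interval is given.

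Rows were listed by symbol (15095) or by Ensembl identifier (7534), of which 889 took a symbol from a table of gene names. Rows with at least 1 TPM in at least 3 libraries were tested with limma 3.58.1 in R 4.3.3 on log2(TPM + 1), with 1 mean per age over all 9 libraries, 6 residual degrees of freedom and moderated variances that follow the mean (the eBayes trend option). P-values were adjusted by the Benjamini-Hochberg method over 12268 rows for each of 4 contrasts. The step was run on simulated data with known fold changes and independent noise. Those data held no shifts between libraries, so they do not cover the dependence on scaling or on single libraries.

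The members, lists and tests were chosen with earlier results of these data known. Named genes were all 10 members, up to 3 genes with the smallest adjusted p under 0.05 per list and contrast, the most abundant gene of each list, and the 3 nearest patterns of each member that passed. Of those nearest patterns, 2 are not reported here. LDHB, CPT1B, marker genes and ANGPTL4 were named outside that rule, after their values were seen.

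The alternatives were pseudocounts of 0.1 and 5 TPM, no filter, a 5 TPM minimum for the mean, quantile normalization, median-of-ratios scaling, a total without mitochondrial transcripts and the 20 most abundant rows, no trend, a robust fit, a fit without the third age, a block for the replicate number, and a fit without each library in turn. Leaving out day 0 replicate 5 and day 7 replicate 5 together was added after the data were seen and is counted among the settings.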

Additional observations from a re-analysis of the deposited data

How the results depend on the processing

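Limits come first: TPM is a share, the depth is unknown, 3 libraries per age allow few small changes to pass, and PDK3 and PDP2 lie close to the filter. For the members, 31 values past the threshold neither in the reported fit nor in the alternative changed sign, with adjusted p-values of 0.616 or more. No called direction of a member or named gene reversed. Counting all alternative values of members, 754 kept their side of the threshold, 59 lost a call and 9 gained one.

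The count of genes at day 7 against day 0, 2031, was 1296 without a filter, 3788 after median-of-ratios scaling, 3562 after quantile normalization, 3588 without mitochondrial and the most abundant rows, and 372 to 2685 when 1 library was left out. At day 15 against day 7, 21 became 5 with a pseudocount of 0.1, 12 without a filter, 1 with a mean of at least 5 TPM, 8, 10 and 12 under the 3 scalings in that order, 2 in a fit on the 2 ages and 0 to 59 when 1 library was left out. At day 15 against day 0, 2933 became 786 to 3275 when 1 library was left out. For day 7 against the mean of the other ages, 236 became 141 with a pseudocount of 0.1, 44 without a filter, 89 with a mean of at least 5 TPM, 583, 553 and 648 under the 3 scalings and 0 to 717 when 1 library was left out. The cause was not tested.

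Whether equal replicate numbers mark paired samples is not given in the labels. Of 5 same-numbered pairs, 1 had a correlation of deviations over 0.1 (range -0.21 to 0.17). With 3 libraries per age, these values cannot decide whether the samples were paired. With the replicate number as a block, the counts of genes were 857, 126, 919 and 28 in the order above. The counts of members were then 2 at day 7 (UCP3 and MPC2) and 2 at day 15 (UCP3 and PDK1), against day 0.

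When 1 library was left out, 1 to 6 members passed at day 7 and 1 to 7 at day 15 against day 0, 0 at day 15 against day 7, and 0 to 1 for day 7 against the mean of the other ages. With day 0 replicate 5 and day 7 replicate 5 both left out, 3 members passed at day 7 against day 0, all lower (UCP3, MPC1 and MPC2), and 1 for day 7 against the mean of the other ages (UCP3), with 144 genes at day 15 against day 7 and 523 genes in that last contrast.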

Other observations

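Nearest patterns of the remaining members are given as values only. For MPC2 they included C1orf52 at 0.05 and TMEM126A, an assembly factor of respiratory complex I, at 0.08, where MPC2 itself varied by 0.43. For MPC1, which varied by 0.33, they included TIMM8B, a chaperone of mitochondrial protein import, at 0.07 and CCDC127 at 0.09. MPC1 and MPC2 differed from each other by 0.19, rank 428 of 7151 rows from MPC1 and 355 from MPC2. PDK2 lay nearest to BSDC1 at 0.09, ADGRF5 at 0.10 and BBS1 at 0.10, and PDK3 to BBS1 at 0.06, ADAMTSL1 at 0.08 and the peroxisomal thiolase ACAA1 at 0.08. PDK2 was the 7th nearest row to PDK3, at 0.10. PDP2 lay nearest to RPAP1, RABEP1 and MIOS, at 0.07 each.

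ANGPTL4, an inhibitor of lipoprotein lipase and a PPAR target, was not named by the rule and was chosen after its values were seen. It had 38.6, 23.4 and 55.4 TPM in day 0 replicates 4, 5 and 6, 24.1, 14.0 and 14.7 TPM in day 7 replicates 2, 5 and 6, and 7.75, 17.1 and 8.55 TPM in day 15 replicates 1, 2 and 6, with a log2 difference of -1.72 at day 15 against day 0 (limma adjusted p = 0.00614).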
